A study of Mus musculus with 8 samples.

Results

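Messenger RNA of 10 cytokine genes was followed across mouse hepatocyte cultures that differed in transglutaminase 2 and in ethanol: the interleukin genes Il23a, Il6, Il1a, Il1b, Il15, Il18 and Il33, the interleukin-1 receptor antagonist gene Il1rn, the tumour necrosis factor gene Tnf and the colony stimulating factor gene Csf1. Every probe set whose platform gene symbol is exactly one of these names was taken, which gave 15 of the 45101 probe sets on the array and 10 of the 18194 genes that carry a single symbol. Il1rn had 3 probe sets, Csf1 had 4 and each other gene had 1. Where a gene had several, the one with the highest mean over the arrays leads and the others are given beside it.

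The cells were primary hepatocytes of the C57BL6/129SVJ strain, either wild type (WT) or from mice lacking transglutaminase 2 (KO), a protein-crosslinking enzyme encoded by Tgm2. Ethanol was absent or present at 100 mM during an incubation of 15 h, and each of the 4 groups had 2 arrays, called A and B. The series title names liver injury and the transcription factor Sp1 as the subject. The labels give neither the part of Tgm2 that was deleted nor whether A and B came from separate animals or cultures, so the p-values below measure only the spread between these arrays, which may be technical. For ethanol WT B and ethanol KO B, title and source name give 100 mM while the treatment text describes an untreated incubation. The titles were followed.

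Levels are quantile-normalised signal intensities, and differences are on the scale log2(intensity + 16), which understates changes of dim genes. A level at or below 28.5, the median of all complete probe sets, is called near background, and levels that low have no reliable order. A gene is called at an adjusted p under 0.05 in a limma fit over 19814 probe sets, with Benjamini-Hochberg adjustment over all of them, and ± gives the standard error (SE) of a log2 difference from 2 arrays against 2. Tgm2 itself read 16656 to 16836 on the WT arrays and 368 to 704 on the KO arrays. Same-group arrays correlated at 0.971 to 0.983. Before normalisation, untreated KO A and B and ethanol KO A were dim, with trimmed means of 99.1, 102 and 104 against 200 to 299 on the other 5 arrays. The hybridisation spike-ins divided the arrays into 2 classes by the ratio of bioC to bioB: array A of each group except untreated KO lay below 2 and the other 5 arrays above it. Each class thus holds 1 array of each ethanol group, so within-class differences that involve an ethanol group rest on a single array of it.

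Cytokines are secreted proteins that carry inflammatory and growth signals between cells. Interleukin-1 alpha and interleukin-1 beta bind the same receptor, and the protein of Il1rn occupies that receptor without activating it. Interleukin-6 signals through the shared receptor chain gp130 and drives the acute phase response of hepatocytes, and tumour necrosis factor can drive either NF-kB signalling or cell death in the liver. Il23a encodes the p19 subunit that joins the p40 subunit, encoded by Il12b, to form interleukin-23. In liver, Kupffer cells, the resident macrophages, are a well known source of interleukin-1, interleukin-6 and tumour necrosis factor during alcohol injury.

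The 250 bases upstream of the annotated start site are shown for 4 genes. Il6 and Il1rn were called below both for KO against WT with ethanol and for ethanol in KO, while Tnf and Csf1 hold the site named for Sp1. The sequences are RefSeq's on build GRCm38.p6, read 5′ to 3′ along the gene, and capitals mark the motifs found: the GC box of Sp1 (GGGCGG), the AP-1 site (TGANTCA) and the NF-kB consensus, each searched on both strands. Il6 lies on the plus strand with its window at chr5:30012864-30013113, Tnf on the minus strand at chr17:35202008-35202257, Csf1 on the minus strand at chr3:107760470-107760719, and the window of the first of 3 annotated Il1rn start sites on the plus strand at chr2:24336610-24336859.
Il6: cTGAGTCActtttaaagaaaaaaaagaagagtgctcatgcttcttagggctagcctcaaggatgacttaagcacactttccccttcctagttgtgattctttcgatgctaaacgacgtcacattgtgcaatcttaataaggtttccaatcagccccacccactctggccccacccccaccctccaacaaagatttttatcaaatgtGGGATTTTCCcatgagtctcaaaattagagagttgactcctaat
Tnf: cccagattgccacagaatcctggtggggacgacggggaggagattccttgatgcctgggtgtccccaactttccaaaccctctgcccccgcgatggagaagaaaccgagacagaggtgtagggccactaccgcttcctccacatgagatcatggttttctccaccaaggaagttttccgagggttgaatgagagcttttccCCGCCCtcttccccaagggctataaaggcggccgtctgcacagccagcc
Il1rn: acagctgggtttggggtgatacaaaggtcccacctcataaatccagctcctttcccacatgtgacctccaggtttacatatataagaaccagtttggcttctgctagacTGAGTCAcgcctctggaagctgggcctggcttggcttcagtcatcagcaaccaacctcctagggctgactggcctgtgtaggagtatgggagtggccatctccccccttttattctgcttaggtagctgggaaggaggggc
Csf1: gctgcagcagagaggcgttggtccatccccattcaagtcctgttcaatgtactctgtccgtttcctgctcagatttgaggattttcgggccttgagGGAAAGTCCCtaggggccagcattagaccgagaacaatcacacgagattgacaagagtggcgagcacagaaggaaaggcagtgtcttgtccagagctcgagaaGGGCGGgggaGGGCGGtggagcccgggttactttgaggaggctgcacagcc

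The Il6 window held an NF-kB match 44 to 35 bases before the start site and an AP-1 match at its far end. The Tnf window held 1 GC box on the opposite strand, and the Csf1 window held 2 GC boxes and 1 NF-kB match on the opposite strand. The window of the first Il1rn start site had an AP-1 match, as had that of Il1a. The windows of the other Il1rn start sites and those of Il1b, Il18 and Il33 held none of the 3 motifs. Of the 10 genes, 8 were matched to a RefSeq promoter, and Il23a and Il15 were not. None of the motifs overlapped another. Among all 32851 windows of this length, 32.7% held the GC box, 6.75% the AP-1 site and 7.25% the NF-kB consensus. A match describes these letters only and is not a site shown to be bound.

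Without ethanol, the cytokine genes stood above WT in untreated KO cultures, by log2 differences of 0.42 in Il15 to 5.60 in Il23a. The members were selected on earlier results of these arrays, taken here to be the KO and WT intensities of this comparison, so its values are given as a description without a test. The untreated arrays are also the baseline of both ethanol comparisons and enter the difference between them. Genes chosen for reading high on untreated KO arrays are thereby tilted towards lower values with ethanol in KO, and the members' tests in those comparisons are not independent of the choice. Both KO arrays lay above both WT arrays for 9 of the 10 genes, the exception being Il15, while 33.7% of all tested probe sets were higher in this way. The median difference of the 10 genes was 1.47 and that of all tested probe sets was -0.04. At the low end, just above Il15, stood Il18 (0.48), Il33 (0.68) and Csf1 (0.85). On the deposited intensities, before normalisation, both KO arrays were still above both WT arrays for Il23a, Il6, Tnf, Il1a, Il1b and Il1rn, but below them for Il18, Il33 and Csf1, and the untreated KO arrays were the dim ones. In bulk cultures, more cells of a type that makes a transcript and more transcript per cell cannot be told apart.

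**Figure D1:**
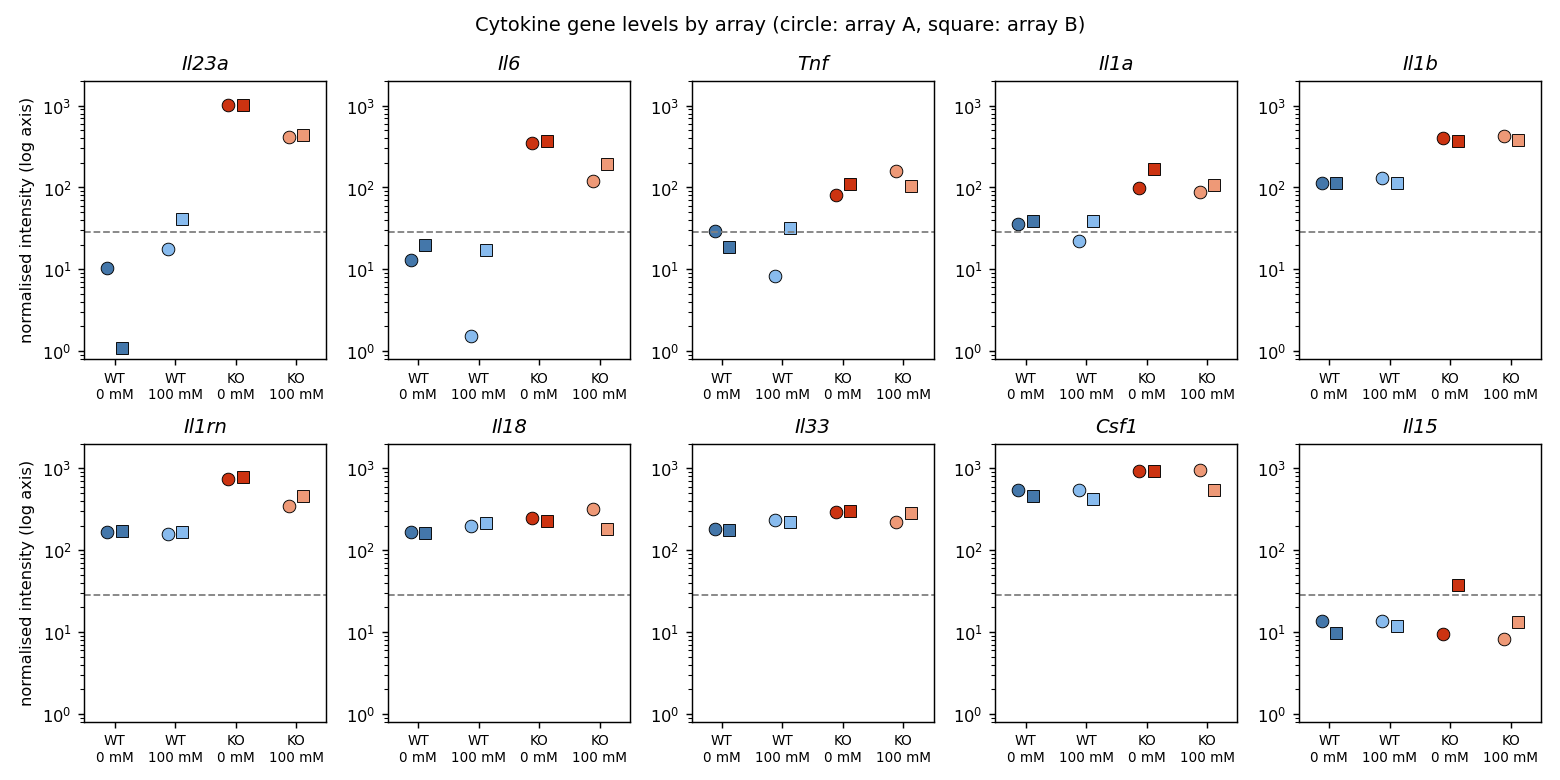
Normalised intensity of each cytokine gene (log axis) on the 8 arrays, by genotype and ethanol concentration in mM, with array A as circles, array B as squares and the near-background level of 28.5 as a dashed line. Il23a and Il6 sit near background on 3 and 4 of the 4 WT arrays and between 121 and 1023 on the KO arrays, whereas Il18 and Il33 stay between 162 and 322 on all 8.

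Il23a had the widest range of the 10 genes. Its level was 10.3 and 1.10 on the untreated WT arrays, 17.5 and 41.7 on ethanol WT, 1023 and 1010 on untreated KO, and 412 and 438 on ethanol KO (A and B in each case). Near-background values made up 3 of the 4 WT readings, and the groups fell in the order untreated KO, ethanol KO, WT, without overlap between KO and WT or between the KO groups. Its mean log2 was 4.41 on untreated WT and 5.46 on ethanol WT, so it passed the filter on dim probe sets largely through KO. With ethanol present, Il23a was higher in KO by 3.33 ± 0.28 (limma adjusted p = 3.8e-05). Within the spike-in classes that difference was 3.68 in the first and 2.98 in the second, each from 1 KO array against 1 WT array.

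Ethanol lowered Il23a in KO cultures by a log2 difference of -1.23 ± 0.28 (limma adjusted p = 0.0141). On the deposited intensities, before normalisation, ethanol KO A (215) lay below the untreated KO arrays (514 and 528) and ethanol KO B (691) above them. In WT the fitted difference was 1.05 ± 0.28 (adjusted p = 0.0649), but 3 of its 4 readings were near background and have no reliable order, so no WT response is read from it. The fitted KO minus WT difference of the ethanol effects, -2.28 ± 0.40 (adjusted p = 0.0139), takes in those WT readings and the untreated arrays the members were selected on. In that comparison 1.78% of all tested probe sets were called lower and 3.57% higher. The size in KO was -1.18 within the second spike-in class, the class that holds arrays of both KO groups. The call in KO was lost without untreated KO A (adjusted p = 0.102), untreated KO B (0.0959) or ethanol KO A (0.0559), with an offset of 1 (0.216), and with the B ethanol arrays taken as untreated (0.400). The call of the genotype difference was lost without untreated KO A (0.0820) or B (0.0824), with an offset of 1 (0.0566), without a variance trend (0.0858) and with the B ethanol arrays taken as untreated (0.642). Since WT is near background, the size depends on the offset: the untreated KO minus WT difference was 3.96 with an offset of 64 and 7.71 with an offset of 1.

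Il6 was near background on all 4 WT arrays and above it on all 4 KO arrays. Its level was 12.9 and 19.8 on untreated WT, 1.52 and 17.1 on ethanol WT, 349 and 369 on untreated KO, and 121 and 196 on ethanol KO. The KO groups did not overlap each other or WT, and the WT groups overlapped. With a mean log2 of 5.01 on untreated WT and 4.59 on ethanol WT, Il6 passed the filter only through its KO arrays. With ethanol, Il6 was higher in KO by 2.82 ± 0.34 (limma adjusted p = 0.000299), and by 2.96 and 2.68 within the first and second spike-in class. Without ethanol the description gave 3.54, or 2.40 with an offset of 64.

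Ethanol lowered Il6 in KO by -1.14 ± 0.34 (limma adjusted p = 0.0389), while in WT, where it was near background throughout, the difference was -0.42 ± 0.34 (adjusted p = 0.600). The KO minus WT difference between these effects, -0.72 ± 0.48, did not pass the test (adjusted p = 0.403). The call in KO ended without untreated WT B (adjusted p = 0.0509), untreated KO A (0.160), untreated KO B (0.186) or ethanol KO A (0.180), and also with no filter on dim probe sets (0.0800), no variance trend (0.0733), an offset of 1 (0.285) or the B ethanol arrays taken as untreated (0.0918). Within the second spike-in class the difference was -0.82. The deposited intensities of Il6 were 72.5 on ethanol KO A, below the untreated KO arrays (179 and 193), and 313 on ethanol KO B, above them. Its promoter window, printed above, was 1 of 2 among the matched genes to hold an NF-kB match, the other being that of Csf1.

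Tnf was higher in KO with ethanol by 2.10 ± 0.37 (limma adjusted p = 0.00249). It measured 29.5 and 18.6 on untreated WT, 8.26 and 31.8 on ethanol WT, 81.7 and 111 on untreated KO, and 161 and 105 on ethanol KO. All KO arrays were above all WT arrays, 2 of the WT readings were near background, and the KO groups overlapped. The mean log2 of Tnf was 5.31 on untreated WT and 5.09 on ethanol WT, so it too passed the filter only through KO. The 2 ethanol KO arrays were apart, so that the difference was 2.87 in the first spike-in class and 1.34 in the second. No ethanol effect passed the test, with -0.22 ± 0.37 in WT (adjusted p = 0.842) and 0.40 ± 0.37 in KO (adjusted p = 0.467).

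The interleukin-1 agonists were both higher in KO with ethanol. Il1b read 112 and 113 on untreated WT, 131 and 114 on ethanol WT, 403 and 373 on untreated KO, and 423 and 375 on ethanol KO. The KO arrays were all above the WT arrays, with overlap between the treatments inside KO. Il1b was higher in ethanol KO by 1.58 ± 0.14 (limma adjusted p = 5.35e-05), and by 1.57 and 1.59 within the 2 spike-in classes. Its response to ethanol was 0.11 ± 0.14 in WT (adjusted p = 0.791) and 0.04 ± 0.14 in KO (adjusted p = 0.874), and the interval of the latter ran from -0.28 to 0.35.

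Il1a lay closer to background. It read 35.6 and 38.5 on untreated WT, 22.2 and 38.4 on ethanol WT, 98.3 and 170 on untreated KO, and 87.9 and 107 on ethanol KO. The genotypes did not overlap, and inside KO the treatments did. With ethanol Il1a was higher in KO by 1.31 ± 0.30 (limma adjusted p = 0.00945), a call that ended without ethanol WT A, the 1 array near background (1.06, adjusted p = 0.0751). Neither ethanol effect passed the test, at -0.22 ± 0.30 in WT (adjusted p = 0.796) and -0.37 ± 0.30 in KO (adjusted p = 0.407).

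Il1rn, the antagonist, was higher in KO on all 3 of its probe sets. The leading one read 165 and 173 on untreated WT, 157 and 165 on ethanol WT, 751 and 783 on untreated KO, and 345 and 465 on ethanol KO. The order was untreated KO, ethanol KO, then WT, and only the WT groups overlapped each other. With ethanol it was higher in KO by 1.23 ± 0.15 (limma adjusted p = 0.000306), and by 1.87 (adjusted p = 1.72e-05) and 1.05 (adjusted p = 0.00265) on the other probe sets.

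Ethanol lowered Il1rn in KO by -0.91 ± 0.15 on the leading probe set (limma adjusted p = 0.00317). Its deposited intensities were 182 on ethanol KO A, below the untreated KO arrays (385 and 408), and 732 on ethanol KO B, above them. A further probe set fell by 0.70 (adjusted p = 0.00759), and on the dimmest the difference was -0.37 (adjusted p = 0.184). In WT the leading probe set differed by -0.06 ± 0.15 (adjusted p = 0.893) and another by -0.54 (adjusted p = 0.0581). The KO minus WT difference of the ethanol effects was -0.85 ± 0.21 on the leading probe set and narrowly missed the threshold (adjusted p = 0.05004). On the other probe sets it was -0.17 (adjusted p = 0.661) and -0.31 (adjusted p = 0.520). With the replicate letter as a block the adjusted p on the leading probe set was 0.0373, and the block also called Csf1 in the comparison of KO with WT under ethanol. Within the second spike-in class Il1rn differed by -0.70 with ethanol in KO, and with the B ethanol arrays taken as untreated its fall there was not called (adjusted p = 0.107).

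Il18 and Il33, members of the interleukin-1 family, did not pass the test in the comparison of KO with WT under ethanol. Il18 read 168 and 162 on untreated WT, 199 and 217 on ethanol WT, 247 and 226 on untreated KO, and 322 and 182 on ethanol KO, where the 2 arrays lay on either side of ethanol WT. Its difference was 0.21 ± 0.22 (limma adjusted p = 0.524), with an interval of -0.29 to 0.71. The sign depended on 1 array: the difference was -0.18 without ethanol KO A, and 0.60 without ethanol KO B, where it was called (adjusted p = 0.0132).

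Il33 read 182 and 178 on untreated WT, 237 and 222 on ethanol WT, 295 and 299 on untreated KO, and 221 and 288 on ethanol KO. The order of group means was untreated KO, ethanol KO, ethanol WT, untreated WT, with overlap between the ethanol groups. Its difference between KO and WT with ethanol was 0.13 ± 0.15 (limma adjusted p = 0.557), with an interval of -0.20 to 0.47, and turned to -0.05 without ethanol KO B. The ethanol effects were 0.33 ± 0.15 in WT (adjusted p = 0.282) and -0.22 ± 0.15 in KO (adjusted p = 0.319), and their difference of -0.55 ± 0.21 did not pass the test (adjusted p = 0.168).

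Csf1, which supports the growth and survival of macrophages, split by probe set. The leading one read 546 and 463 on untreated WT, 547 and 424 on ethanol WT, 917 and 916 on untreated KO, and 946 and 539 on ethanol KO. The untreated KO arrays stood above every WT array, whereas ethanol KO B fell inside the WT range. With ethanol the difference was 0.55 ± 0.22 (limma adjusted p = 0.0954), with an interval of 0.05 to 1.06, and it was 0.95 without ethanol KO B (adjusted p = 0.00204). With the replicate letter as a block the adjusted p was 0.0327, and with spike-in class as a term it was 0.0124.

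Of the other Csf1 probe sets, 1 was called in the same comparison. It read 86.1 and 75.6 on ethanol WT and 284 and 178 on ethanol KO, a difference of 1.32 ± 0.24 (limma adjusted p = 0.00330). The remaining pair gave 0.71 (adjusted p = 0.0963) and 0.19 (adjusted p = 0.496). The ethanol effect on the leading probe set was -0.06 ± 0.22 in WT (adjusted p = 0.943) and -0.35 ± 0.22 in KO (adjusted p = 0.289). On the others, in the same order, it was -0.49, -0.32 and -0.03 in WT and 0.47, -0.63 and -0.21 in KO, with no call. The KO minus WT difference of these effects was -0.29 on the leading one and 0.96, -0.32 and -0.18 on the others, also with no call. Without ethanol the others gave 0.36, 1.03 and 0.37, beside 0.85 on the leading one.

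Il15, a growth factor of natural killer and memory T cells, was near background on 7 of the 8 arrays. It read 13.6 and 9.63 on untreated WT, 13.8 and 11.9 on ethanol WT, 9.58 and 37.1 on untreated KO, and 8.21 and 13.1 on ethanol KO. The groups overlapped, with a single higher reading in untreated KO, and the probe set lay below the filter on dim probe sets, so it was not tested.

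**Figure D2:**
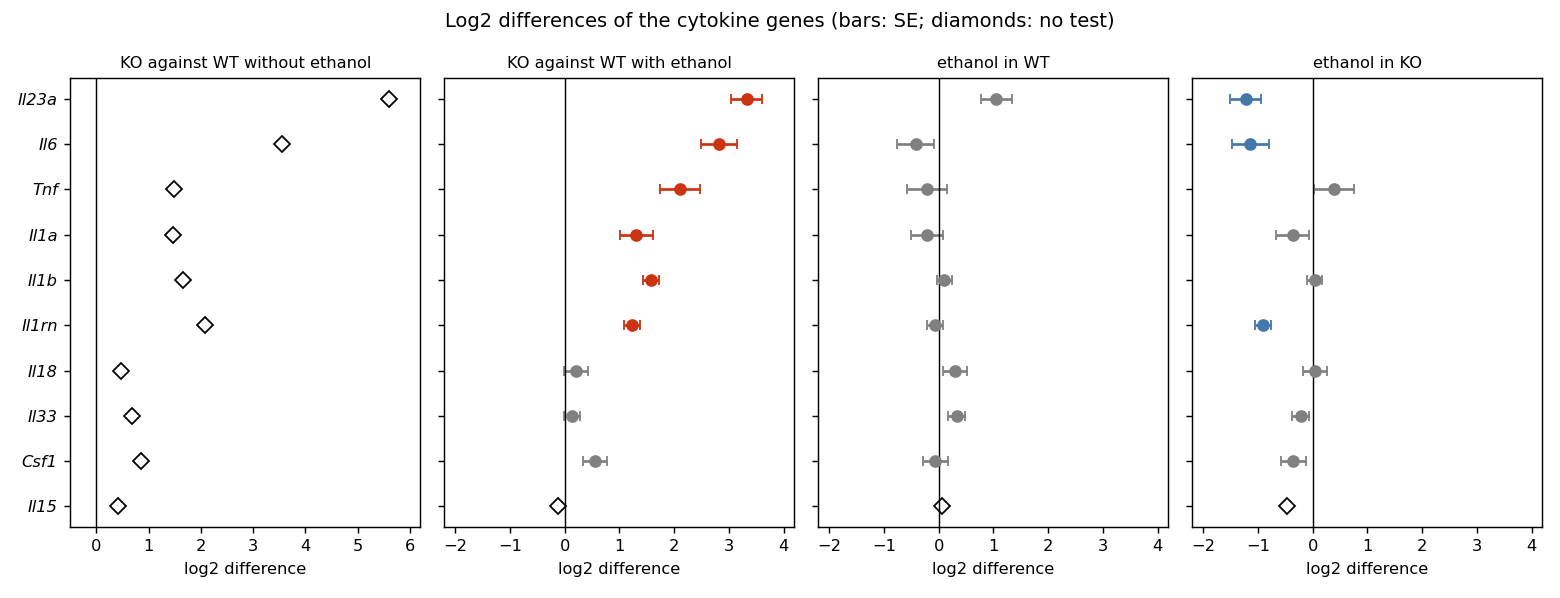
Log2 differences of the 10 cytokine genes in 4 comparisons, with bars of the SE where a test was run and open diamonds for the untested comparison and for Il15. The first panel has a wider axis, and the ethanol comparison in KO shows Il23a, Il6 and Il1rn below 0.

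Across the comparisons, 9 of the 10 genes were tested. With ethanol present, 6 genes were higher in KO (Il23a, Il6, Tnf, Il1a, Il1b and Il1rn) and none was lower, where 14% of all tested probe sets were called higher and 15.1% lower. Their median difference was 1.27 over the 10 genes and -0.05 over all probe sets. The members were selected on earlier results of these arrays, and Il6, Tnf and, largely, Il23a passed the filter through KO. The count and median are therefore not read against those of all probe sets. With no filter the members called were also 6. Ethanol in WT called 0 of the 9 with limma at the adjusted threshold and 1 of them, Il23a, at an unadjusted p under 0.05, while 5.58% of all probe sets were called. Ethanol in KO lowered 3 genes (Il23a, Il6 and Il1rn) and raised none, beside 10.8% of all probe sets lower and 11.4% higher, with medians of -0.36 and -0.01. The difference of the ethanol effects called 1 gene, Il23a, lower. Nothing is read from these last counts against the share of all probe sets, since the choice of members used the untreated arrays. Counting the B ethanol arrays as untreated, as their treatment text reads, left 0 genes called by limma for ethanol in KO and 0 for the difference of the effects, with 2 at an unadjusted p under 0.05 in each.

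Genes with the most similar course over the 8 arrays were sought for the 3 members with the widest range, as the smallest root-mean-square difference between mean-centred log2 profiles among 10740 genes. The points share arrays and scaling, so this is a description. For Il23a these were Ccl7 at 0.52, Ifi202b at 0.68, Rbm45 and Cidea at 0.71, and Cxcl1 at 0.78. For Il6 the distances were smaller, from 0.26 for Nfkbiz, 0.30 for Tnfaip3 and 0.31 for Ccl3 to 0.40 for Ccl2 and 0.43 for Tnfaip2. For Tnf they lay between 0.29 for Selp and 0.31 for Atp11a, with Dusp7, 2610005L07Rik and Elf3 at 0.30.

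**Figure D3:**
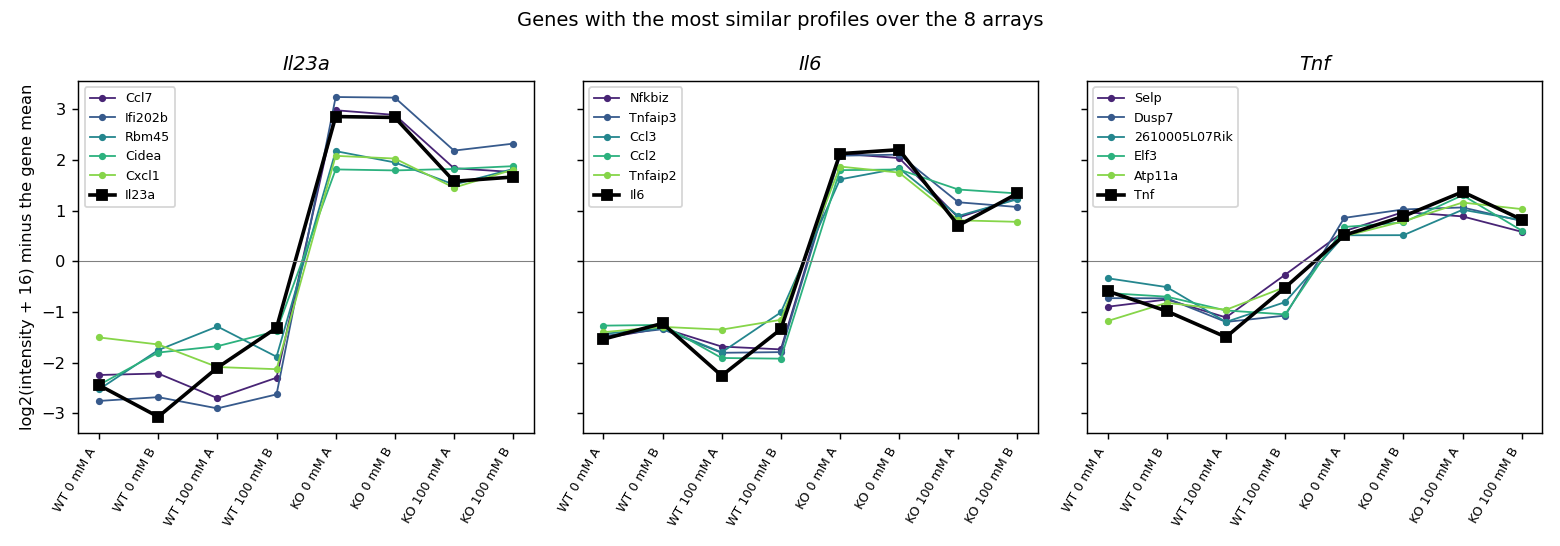
Mean-centred log2 profiles over the 8 arrays of Il23a, Il6 and Tnf (thick lines) and of the 5 genes closest to each (thin lines). Each set is high on KO arrays and low on WT arrays, with untreated KO above ethanol KO for Il23a, Il6 and their neighbours other than Cidea.

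The receptors and signalling genes of these cytokines moved in both directions. Of the 124 genes on 7 pathway lists, 111 were measured, 40 of those lay below the filter and 71 were tested. With ethanol present, 18 of the 71 were higher in KO and 8 lower, or 25.4% and 11.3%, beside the 14% and 15.1% of all probe sets. The lists' median was 0.20. Ethanol in WT raised 1 (1.41%) and lowered 5 (7.04%), beside 1.67% and 3.91% of all probe sets. Ethanol in KO raised 7 (9.86%) and lowered 10 (14.1%), near the 11.4% and 10.8% of all probe sets. The difference of the ethanol effects was called higher for 1 (1.41%) and lower for 4 (5.63%), beside 3.57% and 1.78%. The lists were chosen with earlier results of these data known. They also count the brightest probe set of each gene, while the background counts every tested probe set. No excess or shortfall is therefore read from these shares.

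**Figure D4:**
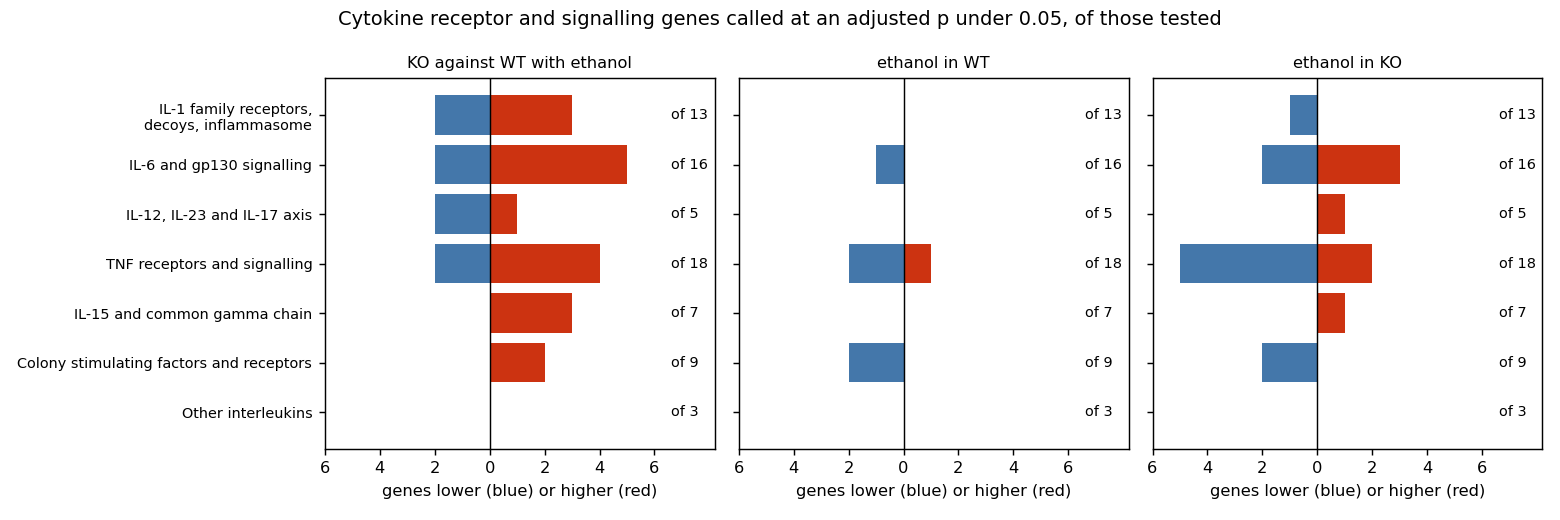
Number of tested genes on each of the 7 cytokine pathway lists that were called higher (red) or lower (blue) in 3 comparisons, with the number tested at the right of each row. The IL-6 list has the most genes higher in KO with ethanol, 5 of 16, and the TNF list the most lowered by ethanol in KO, 5 of 18.

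Of the 13 tested interleukin-1 pathway genes, KO with ethanol had 3 higher and 2 lower. Traf6 and Irak2, which relay the receptor's signal, were higher by 0.79 ± 0.18 (limma adjusted p = 0.0102, on 1 of 3 probe sets) and 0.43 ± 0.12 (adjusted p = 0.0235). Sigirr, an inhibitory receptor of the family, was lower by -0.94 ± 0.21 (adjusted p = 0.00816). Each of these 3 calls ended without ethanol WT A and also without ethanol WT B, which leaves 1 array in that group. Over single arrays left out, the differences were 0.69 to 0.90 for Traf6, 0.34 to 0.53 for Irak2 and -0.99 to -0.91 for Sigirr. The call of Irak2 also ended without ethanol KO A, and that of Sigirr under trimmed-mean scaling (adjusted p = 0.0510). Il1r1, the signalling receptor, differed by -0.93 ± 0.54 without passing the test (adjusted p = 0.232). The 13 genes had a median of 0.25. None of them was called for ethanol in WT, and 1 fell with ethanol in KO, the kinase gene Irak1, by 1.73 (adjusted p = 0.00226, on 2 of 4 probe sets).

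Of 16 tested genes on the interleukin-6 list, 5 stood higher and 2 lower in ethanol KO, with a median of 0.24. Lif, a cytokine that also signals through gp130, was higher by 1.01 ± 0.09 (limma adjusted p = 6.02e-05), and Socs3, a feedback inhibitor, by 0.86 ± 0.15 (adjusted p = 0.00240). The kinase gene Jak1 was higher by 0.54 ± 0.09 (adjusted p = 0.00170, on 2 of 3 probe sets). Lif fell with ethanol in WT by 0.58 (adjusted p = 0.00710) and in KO by 0.53 (adjusted p = 0.00401), on 1 of 2 probe sets each. Ethanol in KO raised 3 and lowered 2 genes of the list, with Stat3, the transcription factor of the pathway, at 0.47 ± 0.08 (adjusted p = 0.00298, on 1 of 3 probe sets) and Cebpb at 0.42 ± 0.10 (adjusted p = 0.0138). The call of Cebpb ended without untreated KO A (0.101) or B (0.0694), and that of Lif in WT without any 1 of the 4 WT arrays (up to 0.0794, without untreated WT B).

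The interleukin-23 partner Il12b lay below the filter, and 5 genes of the list for interleukin-12, interleukin-23 and interleukin-17 were tested, with 1 higher and 2 lower in KO under ethanol. Il17ra and Il17rc, receptor genes for interleukin-17, a cytokine made by cells that interleukin-23 supports, were lower in ethanol KO by -0.69 ± 0.10 (limma adjusted p = 0.00106, on 1 of 2 probe sets) and -0.68 ± 0.13 (adjusted p = 0.00489). Il10rb, a receptor chain of interleukin-10 and interleukin-22, was higher by 0.33 ± 0.10 (adjusted p = 0.0413), which leaving out ethanol WT A or B, among other arrays, ended (0.146 and 0.147). Il17rc rose with ethanol in KO by 0.92 ± 0.13 (adjusted p = 0.00198).

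Of 18 tested genes of tumour necrosis factor signalling, KO with ethanol had 4 higher and 2 lower. Zfp36, whose protein destabilises Tnf messenger RNA, was higher by 1.84 ± 0.09 (limma adjusted p = 1.8e-06). It read 584 and 564 on untreated WT, 431 and 402 on ethanol WT, 1658 and 1589 on untreated KO, and 1623 and 1439 on ethanol KO. Birc3, an inhibitor of apoptosis, was higher by 1.59 ± 0.27 (adjusted p = 0.00238), and the kinase gene Map3k5 was lower by -0.61 ± 0.12 (adjusted p = 0.00561, on 1 of 2 probe sets). Ethanol in WT lowered Zfp36 by 0.45 (adjusted p = 0.0242) and Casp8, the initiator caspase of death receptors, by 0.64 (adjusted p = 0.0348), and raised Map3k5 by 0.60 ± 0.12 (adjusted p = 0.0238, on 1 of 2 probe sets). Each of these 3 calls in WT ended with either untreated WT array left out, and also without ethanol WT A, at adjusted p of up to 0.170 for Zfp36, 0.234 for Casp8 and 0.206 for Map3k5. The call of Map3k5 in KO against WT ended without ethanol WT A (0.0632).

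The TNF receptors responded to ethanol in KO in opposite directions. Tnfrsf1a, the receptor with a death domain, read 600 and 657 on untreated KO and 1335 and 1103 on ethanol KO, a rise of 0.93 ± 0.11 (limma adjusted p = 0.000909). Tnfrsf1b, the receptor without one, read 1090 and 1067 on untreated KO and 648 and 549 on ethanol KO, a fall of 0.84 (adjusted p = 0.00133, on 1 of 2 probe sets). In WT they read 1119 and 1063 against 1322 and 1157, and 440 and 457 against 442 and 499. Over single arrays left out, the differences in KO were 0.80 to 1.08 for Tnfrsf1a and -0.96 to -0.73 for Tnfrsf1b. Both calls in KO were lost under some alternative. Over the list, ethanol in KO raised 2 genes and lowered 5, and the median was -0.11.

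Of 7 tested genes of the interleukin-15 and common gamma chain list, 3 were higher and 0 lower in ethanol KO by limma. These were the interleukin-4 and interleukin-13 receptor genes Il13ra1 (0.64 ± 0.13, adjusted p = 0.00515, on 3 of 4 probe sets) and Il4ra (0.42 ± 0.13, adjusted p = 0.0381), and the transcription factor gene Stat5a (0.58 ± 0.19, adjusted p = 0.0489). Without ethanol WT A or B, Il13ra1 was at an adjusted p of up to 0.0509, Il4ra at up to 0.190 and Stat5a at up to 0.230. Crlf2, a receptor of thymic stromal lymphopoietin, rose with ethanol in KO by 0.75 ± 0.18 (adjusted p = 0.0187), a call that ended without untreated KO A (0.135), untreated KO B (0.0513) or ethanol KO A (0.0579). Of the other interleukins on the lists, 3 were tested and limma called none in any comparison.

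Of 9 tested genes of the colony stimulating factor list, the granulocyte factors Csf2 and Csf3 were called in KO against WT with ethanol and in both ethanol comparisons. Csf3 read 33.1 and 35.5 on untreated WT, 4.86 and 14.4 on ethanol WT, 374 and 379 on untreated KO, and 104 and 110 on ethanol KO. Csf2 read 128 and 120, 50.1 and 73.2, 659 and 615, and 142 and 214 in the same order. With ethanol they were higher in KO by 2.29 ± 0.24 (limma adjusted p = 0.000130) and 1.31 ± 0.21 (adjusted p = 0.00176). Ethanol lowered Csf3 and Csf2 in KO by log2 differences of -1.67 and -1.78 (adjusted p = 0.00181 and 0.000878). In WT, Csf3 was near background on both ethanol arrays, so that its fitted differences against ethanol WT are uncertain in size, and little above it on the untreated ones. The fitted ethanol differences in WT were -0.997 for Csf3 and -0.867 for Csf2 (adjusted p = 0.0417 and 0.0473). Both calls ended without untreated WT A or B or ethanol WT A (up to 0.243 for Csf3 and 0.277 for Csf2) and with an offset of 64 (0.111 and 0.0689). Csf1r, the receptor of Csf1, differed by -0.11 ± 0.21 between ethanol KO and ethanol WT (adjusted p = 0.734), and without ethanol it was lower in KO by -0.65 ± 0.21 (adjusted p = 0.0419, on 1 of 3 probe sets).

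Hepatocyte markers were high in every group: 10 of 12 were measured, none was near background, and their summed level was 78413 to 82761 on all arrays. Quantile normalisation gives every array the same set of levels, so this sum of very bright probe sets is not read as hepatocyte content. In untreated cultures, limma called 3 of the 10 higher in KO (Ttr, Apob and Cyp2e1) and 5 lower. The lower ones were Hnf4a (-1.36), Cps1 (-0.61), Tat (-0.55), Apoa1 (-0.39) and Fgb (-0.18). Of the 10, 1 was higher in KO with ethanol, Cyp2e1, an ethanol-oxidising enzyme (0.64, limma adjusted p = 0.000450), and 3 were lower: the transcription factor gene Hnf4a (-1.08, adjusted p = 6.06e-05), Cps1 (-0.64, adjusted p = 9.55e-05) and Apoa1 (-0.34, adjusted p = 0.00734). Markers of macrophages and Kupffer cells, all 17 measured, summed to 5197 and 5639 on the untreated WT arrays, 7147 and 7360 on ethanol WT, 6259 and 6314 on untreated KO, and 9039 and 8438 on ethanol KO. Cd14 made up most of each sum. It read 3831 and 4082 on untreated WT and 5569 and 5758 on ethanol WT. On the KO arrays it read 4183 and 4304 without ethanol and 6098 and 5848 with it. Without ethanol, limma called 1 of the 14 tested markers higher in KO (Cd68) and 3 lower (Csf1r, Lyz2 and Marco). With ethanol, 1 of the 14 tested was higher in KO, Cd68 (1.63 ± 0.10, adjusted p = 4.34e-06), and 1 lower, Marco (-1.27 ± 0.29, adjusted p = 0.0103), while Cd163 and Itgam were near background in every group. Cholangiocyte markers, 4 of 5 measured, summed to 312 to 460 on WT and 768 to 1118 on KO arrays, and Sox9 made up most of the sum, at 232 to 323 on WT and 686 to 1049 on KO arrays (1.45 higher in ethanol KO, adjusted p = 6.04e-05). The other cholangiocyte markers did not follow it: Krt7 was near background throughout, Krt19 was at most 49.6 on WT and 40.9 on KO arrays, and Epcam read 7.42 to 122 on WT and 25.4 to 88.7 on KO arrays.

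Neutrophil markers, 8 of 10 measured, summed to 216 to 391 with S100a9, Camp and Cxcr2 near background in every group, and endothelial markers, all 9 measured, to 709 to 917, with 1 of 9 tested higher in ethanol KO, Pecam1 (0.77, limma adjusted p = 0.0218), and none lower. Stellate cell markers, all 9 measured, summed to 265 to 427 on WT and 453 to 788 on KO arrays, with Lrat, Col1a1 and Pdgfrb near background in every group. Of 5 tested, limma called 1 higher in ethanol KO, Dcn (1.34, adjusted p = 0.00320), and none lower. Dcn read 66.1 to 124 on WT and 234 to 347 on KO arrays, and Rgs5 21.0 to 43.2 and 52.9 to 74.4. The other stellate markers did not separate the genotypes: Acta2 read 56.1 to 137 on WT and 22.3 to 273 on KO arrays, and Col1a2 17.3 to 56.9 and 19.6 to 61.3. Lymphocyte markers, 8 of 10 measured, summed to 54.6 to 104. The Pcx ratio of 3′ to 5′ signal, a measure of RNA integrity, was 10.02 and 16.8 on the untreated WT arrays, 26.7 and 44.5 on ethanol WT, 10.6 and 8.69 on untreated KO, and 4.91 and 5.45 on ethanol KO. The part of these cell type and RNA measures in the cytokine differences was not tested.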

How the data were processed

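Gene expression was measured with 1-colour Affymetrix arrays in 8 samples. The authors deposited 1 table of linear intensities by probe set, with overall levels that differ between arrays. The software, scaling and genome build behind it are not given in the sources used. Per the labels' protocols, RNA came from an RNeasy kit and was made into biotinylated cRNA. On ethanol WT B, 5403 values were 0 and 7 were impossible as intensities, so 39627 complete probe sets were kept. No cytokine probe set was affected.

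Intensities were quantile normalised over the 39627 probe sets and taken as log2(intensity + 16). Tests used the upper 50% of probe sets by mean (log2 of at least 5.40), leaving 19814. limma 3.58.1 in R 4.3.3 fitted 4 group means to 8 arrays with a variance trend, giving 4 residual and 5.43 prior degrees of freedom, with Benjamini-Hochberg adjustment within each comparison. The number of arrays limits the precision. Groups followed titles and source names.

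Probe sets were named by the platform annotation: 34958 had 1 symbol, 932 several and 9211 none, and 34754 symbols were matched to RefSeq. The members, gene lists and markers were chosen with earlier results of these data known, and the members have no test in the untreated comparison of KO with WT. Besides the members, up to 3 called genes with the smallest adjusted p were named per pathway list and comparison, by the brightest probe set, plus the 5 closest profiles of 3 members. Tnfrsf1a in the comparison of ethanol effects and other named genes outside that rule (Il1r1, Il12b and Csf1r) were chosen for their roles after their values were seen.

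Data were simulated from these 19814 probe sets, with 200 changed per comparison and independent noise on each array. The fit recovered 65% of log2 changes of 1 and 88% of changes of 2 for KO against WT with ethanol. The shares were 46% and 82% for ethanol in WT, 56% and 86% for ethanol in KO, and 24% and 75% for the difference of the ethanol effects. The real comparisons had more calls, and the adjustment depends on that number, so these shares describe the simulated setting only. Alternatives were an offset of 64 or 1, trimmed-mean scaling, no filter or the top 30%, incomplete probe sets kept, the replicate letter as a block, array B of the ethanol groups left out or taken as untreated, spike-in class as a term, no variance trend, and each array left out in turn. Leaving out the 3 dim KO arrays was added after seeing the data.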

Additional observations from a re-analysis of the deposited data

Results flagged for a closer look

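The effect of ethanol differed between KO and WT cultures, by the limma test of the difference itself, for 1 of the 9 tested cytokine genes and 5 of the 71 tested pathway genes, of which 1 was higher (1.41%) and 4 lower (5.63%), beside 3.57% and 1.78% of all probe sets. All of these comparisons share the untreated arrays, on which the cytokine genes were selected. The pathway lists were also chosen with earlier results known, so no excess or shortfall is read from their shares. Each call ended without untreated KO A or B, at adjusted p of up to 0.0824 for Il23a, 0.114 for Irak1, 0.130 for Tnfrsf1a, 0.0762 for Tnfrsf1b, 0.108 for Birc2 and 0.120 for Tab2. The fitted difference of Il23a was -2.28 ± 0.40 (adjusted p = 0.0139), with 3 of the 4 WT readings near background: it stood at 1023 and 1010 without ethanol and 412 and 438 with it in KO, against 10.3 and 1.10, then 17.5 and 41.7, in WT. Irak1, a kinase of interleukin-1 signalling, differed by -1.87 ± 0.37 (adjusted p = 0.0219, on 1 of 4 probe sets), with 1359 and 1130 falling to 254 and 511 in KO, and 555 and 627 beside 575 and 731 in WT.

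Tnfrsf1a differed by 0.75 ± 0.16 (adjusted p = 0.0290) and Tnfrsf1b by -0.90 ± 0.16 (adjusted p = 0.0134, on 1 of 2 probe sets), the TNF receptors with and without a death domain. Birc2, an inhibitor of apoptosis that binds TNF receptor complexes, differed by -0.98 ± 0.19 (adjusted p = 0.0219), and Tab2, an adaptor of the kinase TAK1, by -0.59 ± 0.12 (adjusted p = 0.0283, on 1 of 2 probe sets). With ethanol WT B and ethanol KO B taken as untreated, limma called 0 probe sets in this comparison, and 2401 had an unadjusted p under 0.05.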

How the results depend on the processing

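With ethanol present, the calls of Il23a, Il6, Tnf and Il1b as higher in KO held under every alternative in which the gene was tested (20 for Il23a and Il1b, 18 for Il6 and 19 for Tnf). Il6 was untested under the top 30% filter and without the 3 dim KO arrays. Because Il6, Tnf and, largely, Il23a passed the filter through KO, and the members were selected on earlier results, these held calls are not independent support. Il1rn lost its call when both B ethanol arrays were taken as untreated (0.0940), as did Il1a (0.0512), which also lost it without ethanol WT A. Over single arrays left out, the members called were 5 to 8 for KO against WT with ethanol, 0 to 1 for ethanol in WT, 1 to 5 for ethanol in KO and 0 to 3 for the difference of the ethanol effects. The 5 called for ethanol in KO without ethanol KO B included Il18 (0.43, adjusted p = 0.0490) and Il33 (-0.40, adjusted p = 0.0477), and the call of Il23a for ethanol in WT came without ethanol WT A (1.43, adjusted p = 0.0453). The probe sets called ranged from 3993 to 8137 for KO against WT without ethanol (6394 with all arrays), from 3298 to 7547 with ethanol (5770), from 274 to 2094 for ethanol in WT (1105), from 1643 to 7507 for ethanol in KO (4394) and from 195 to 4397 for the difference of the effects (1061). The top 30% filter left Il6, Tnf and Il1a untested, so 3 members were called for KO against WT with ethanol, and it called 1 member for ethanol in WT and 2 for the difference of the effects. No filter gave 715 probe sets for ethanol in WT and 663 for the difference. An offset of 1 left 1 member called for ethanol in KO, ending the calls of Il23a and Il6, and 0 for the difference, ending that of Il23a, and an offset of 64 gave 2 for the difference. No variance trend gave 286, 2682 and 85 probe sets for ethanol in WT, ethanol in KO and the difference, and 0 members for the difference. Leaving out the B ethanol arrays gave 7390 probe sets for ethanol in KO, and 3262 probe sets and 3 members for the difference. Counting them as untreated gave 1367, 0, 380 and 0 probe sets in the order above from KO against WT with ethanol, and 0 members for ethanol in KO and for the difference. The cause of these changes was not tested beyond the fewer arrays or probe sets. Scaling moved the split of calls with ethanol from 2777 higher and 2993 lower to 3110 and 2725 under trimmed-mean scaling, and to 3142 and 1782 with incomplete probe sets kept. Among pathway genes called for KO against WT with ethanol, only Zfp36 and Birc3 kept the call under every alternative in which they were tested. Every pathway gene called for ethanol in WT, ethanol in KO or the difference of the effects lost its call under some alternative.

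The letters A and B were not taken to pair the arrays, since not every correlation of deviations between groups was above 0.1. They were 0.204 to 0.302 among untreated WT, ethanol WT and ethanol KO, where letter and spike-in class coincide, and 0.0218 to 0.0308 for untreated KO with each of these. With the replicate block, 2 members were called for the difference of the ethanol effects (Il23a and Il1rn) and 7 for KO against WT with ethanol (Csf1 added), and no other member's call changed. Sign changes concerned values that did not pass the test. For KO against WT with ethanol, Il18 was -0.18 without the 3 dim KO arrays and -0.18 to 0.60 over single arrays left out, and Il33 was -0.0876 with the B ethanol arrays left out, -0.0905 with them taken as untreated and -0.0473 to 0.31 over single arrays. Il15 without ethanol ranged from -0.11 to 0.98. For ethanol in WT, Il6 ranged from -0.88 to 0.0400, Tnf from -0.71 to 0.27, Il1a from -0.47 to 0.0382 and Csf1 from -0.24 to 0.12. Csf1 was there 0.12 with the B ethanol arrays left out and 0.20 with them taken as untreated, and Il1b was -0.0461 with incomplete probe sets kept. For ethanol in KO, Il1b was -0.0186 and Il18 -0.0785 with spike-in class as a term, and over single arrays Il1b ranged from -0.0459 to 0.12, Il18 from -0.35 to 0.43, Il15 from -1.03 to 0.0559 and Csf1 from -0.75 to 0.0454. Csf1 was 0.0454 with the B ethanol arrays left out and 0.29 with them taken as untreated. For the difference of the ethanol effects, Il6 was 0.11 with an offset of 1. Trimmed-mean scaling gave 0.0904 for Il1a and 0.0218 for Il1b, and keeping incomplete probe sets gave 0.0818 for Il1b. With both B ethanol arrays taken as untreated, Il1a was 0.0802, Il18 0.41 and Csf1 0.0979, and with them left out Il18 was 0.17. Over single arrays Il1a ranged from -0.50 to 0.21, Il1b from -0.16 to 0.0227, Il18 from -0.66 to 0.12 and Csf1 from -0.69 to 0.10. Signal near background limits Il15 in all groups and Il23a, Il6, Tnf and Csf3 in WT.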
